A study of Mus musculus with 2 samples.

Results

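The receptor Csf1r and its ligands Csf1 and Il34 were followed across the cells of mouse heart. They were chosen by gene symbol and are 3 of the 55357 genes listed in the deposited matrices. Hearts of C57BL/6 mice were dissociated for droplet-based 10x Chromium sequencing, which reads out mRNA by cell barcode and by a random tag per molecule, the unique molecular identifier or UMI, so that PCR copies of a molecule are counted once. A library was made from Sham mice, which by the labels were operated on without narrowing of the aorta, and another from TAC mice, in which transverse aortic constriction narrows the arch and puts a pressure load on the left ventricle. By the labels the TAC mice were male, were operated on at 8 weeks of age and carried the constriction for 6 weeks, while sex and age of the Sham mice are not given there. The design text calls the control mice uninjured, which was not settled. Each library combined the cells of 3 to 5 hearts, so there was 1 library per condition and the mice cannot be told apart.

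Csf1r is a class III receptor tyrosine kinase that macrophages and their precursors need for survival, growth and differentiation. It has a pair of ligands that are unrelated in sequence: Csf1 (M-CSF), made as membrane-bound and secreted forms, and Il34 (interleukin-34), best known from keratinocytes of the skin and neurons of the brain. In tissues the receptor is a hallmark of resident macrophages, which depend on ligand made by neighbouring cells.

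In the GENCODE M21 annotation of GRCm38, Csf1 lies on chromosome 3 from 107741048 to 107760469 on the minus strand. Il34 lies on chromosome 8 from 110741829 to 110805924, also on the minus strand. Csf1r lies on the plus strand of chromosome 18 from 61100598 to 61132149, and 15536 bases separate its start from the end of Pdgfrb, the platelet-derived growth factor receptor of pericytes, which is on the same strand. The end of Csf1r overlaps the convergent gene Hmgxb3 by 873 bases, and Il34 overlaps the antisense genes Gm15894 and Gm15895. In pericytes these antisense genes had 1 and 0 UMIs in Sham and 1 and 2 in TAC, and Hmgxb3 was at a like level in Sham macrophages (49.8 per 1000000 UMIs) and Sham pericytes (53.3 per 1000000 UMIs). The build the authors counted on is not given in the sources used here, and neither is their use of strand or introns.

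In total there were 28146691 UMIs from 9935 barcodes in Sham, and 29108986 UMIs from 9932 barcodes in TAC. After removal of doublets 9475 and 9452 cells remained, with medians of 1906 and 2080 UMIs. Cells were clustered without the 3 genes and named from marker lists, and each name is short for a marker-defined, for instance macrophage-like, population. There were 2510 cardiomyocytes in Sham and 2397 in TAC, 2290 and 2128 fibroblasts, 1904 and 2251 endothelial cells, 1412 and 1327 macrophages, 1065 and 1043 pericytes, and 85 and 110 lymphatic endothelial cells. Types with fewer than 50 cells in a library are given as counts only. The libraries shared 32 barcode sequences. Levels are UMIs of a gene per 1000000 UMIs of the cell type, with exact Poisson 95% intervals. No test was possible with 1 library per condition, and every interval covers counting error only, not differences between mice, and treats the UMIs of a cell as independent.

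Csf1r was found in macrophages. In Sham, 1519 of its 1625 UMIs (93.5%) lay in macrophages, which held 8.51% of all UMIs. In TAC it was 1487 of 1575 UMIs (94.4%), against 9.65% of all UMIs. With types taken from each cell's own markers instead of clusters, macrophages held 31.6% in Sham and 58.8% in TAC, and Csf1r in Sham cardiomyocytes was at 40.8 per 1000000 UMIs. By that rule a cell needed at least 2 detected markers of a type and more than of any other. Cells that did not meet it had no type, but their UMIs stayed in the total. The level in macrophages was 688 per 1000000 UMIs (654 to 723) in Sham and 579 (550 to 609) in TAC. Among the 6 types with at least 50 cells in each library the next in order was pericytes in both libraries, with 9.79 (5.80 to 15.5) and 8.84 (5.15 to 14.2), so that macrophages exceeded it 70.3-fold (44.3 to 119) in Sham and 65.4-fold (40.7 to 113) in TAC.

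Among the low levels the order was loose. Endothelial cells had 7.001 in Sham and 5.26 in TAC, fibroblasts 4.42 and 2.70, and cardiomyocytes 1.63 and 1.91, each from 14 to 25 UMIs. In Sham, neither pericytes and endothelial cells nor endothelial cells and fibroblasts differed beyond counting error, and fibroblasts exceeded cardiomyocytes 2.71-fold (1.46 to 5.07). In TAC no pair of neighbours below macrophages differed beyond it. Lymphatic endothelial cells had 0 Csf1r UMIs in Sham, which allows up to 16.4 per 1000000 UMIs, and 1 UMI in TAC. Smooth muscle cells had 0 in both libraries.

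**Figure D1:**
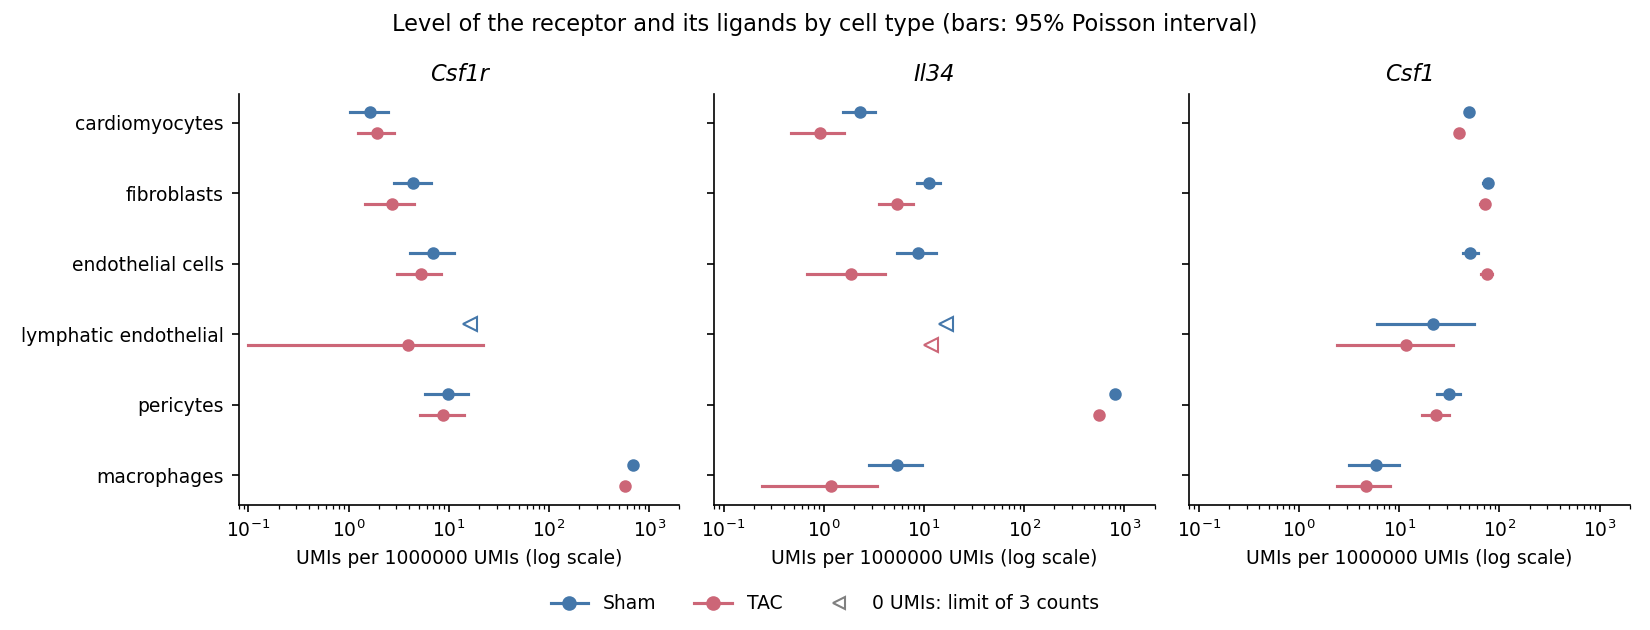
Level of Csf1r, Il34 and Csf1 (UMIs per 1000000 UMIs of the cell type, log axis) in 6 cell types, with Sham in blue, TAC in red and bars for the 95% Poisson interval; open triangles mark the limit of 3 counts where no UMI was seen. Csf1r stands at 688 and 579 in macrophages and Il34 at 799 and 563 in pericytes, with the other types in which UMIs were seen below 12, while Csf1 is spread over several types and is lowest in macrophages.

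The low Csf1r counts outside macrophages were set beside the macrophage markers found in the same cells. The 8 macrophage markers (among them Adgre1, the F4/80 antigen, and the complement genes C1qa, C1qb and C1qc) summed to 4977 per 1000000 UMIs in Sham macrophages and to between 17.6 and 67.1 in the 4 other large types. Per 1000 of these marker UMIs, Csf1r had 138 UMIs (131 to 146) in Sham macrophages, 104 (59.3 to 172) in endothelial cells, 105 (65.8 to 160) in fibroblasts, 92.8 (57.1 to 144) in cardiomyocytes and 191 (109 to 319) in pericytes. In TAC it was 105 (99.4 to 111) in macrophages, 54.3 (31.2 to 88.4) in endothelial cells, 58.3 (31.4 to 99.8) in fibroblasts, 71.6 (45.7 to 108) in cardiomyocytes and 143 (80.5 to 239) in pericytes. In Sham the interval of each of the 4 other types included the macrophage value, and in TAC those of pericytes and cardiomyocytes did while those of endothelial cells and fibroblasts lay below it. What part RNA from macrophages had in these counts was not tested.

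The share of macrophages with a Csf1r UMI depended on depth. Without thinning, 832 of 1412 Sham macrophages (58.9%) and 793 of 1327 TAC macrophages (59.8%) had a Csf1r UMI, at median depths of 1314.5 and 1653 UMIs. When every cell was thinned to 1000 UMIs, which left out 401 and 221 shallower macrophages, the share was 47.0% (43.9 to 50.1) in Sham and 42.3% (39.4 to 45.3) in TAC. In fibroblasts, which should lack the receptor, the thinned share was 0.625% and 0.393%, at median depths of 2155 and 2268.5 UMIs, and in cardiomyocytes 0.242% and 0.252%. No macrophage had more than 8 UMIs.

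Il34 was found in pericytes, the mural cells of capillaries. Pericytes held 1469 of 1629 Il34 UMIs (90.2%) in Sham and 1083 of 1154 (93.8%) in TAC, with 7.09% and 7.22% of all UMIs. With types from each cell's own markers these shares were 43.7% and 53.1%. Their level was 799 per 1000000 UMIs (759 to 841) in Sham and 563 (530 to 598) in TAC. Among the 6 types with at least 50 cells in each library, fibroblasts followed with 11.2 (8.60 to 14.4) and 5.39 (3.58 to 7.80), a 71.1-fold (55.0 to 93.4) and 104-fold (71.8 to 158) lower level.

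The same ligand was present in smooth muscle cells, the mural cells of larger vessels, although these were few. The 48 Sham smooth muscle cells had 34 Il34 UMIs among 122044 and the 43 TAC cells 16 among 97590, in 15 and 9 cells. Pericytes themselves were hardly divided by clustering: at the setting used for sub-clusters, which was applied to pericytes after their values had been seen, 1049 of 1065 Sham and 1040 of 1043 TAC pericytes fell into 1 group.

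**Figure D2:**
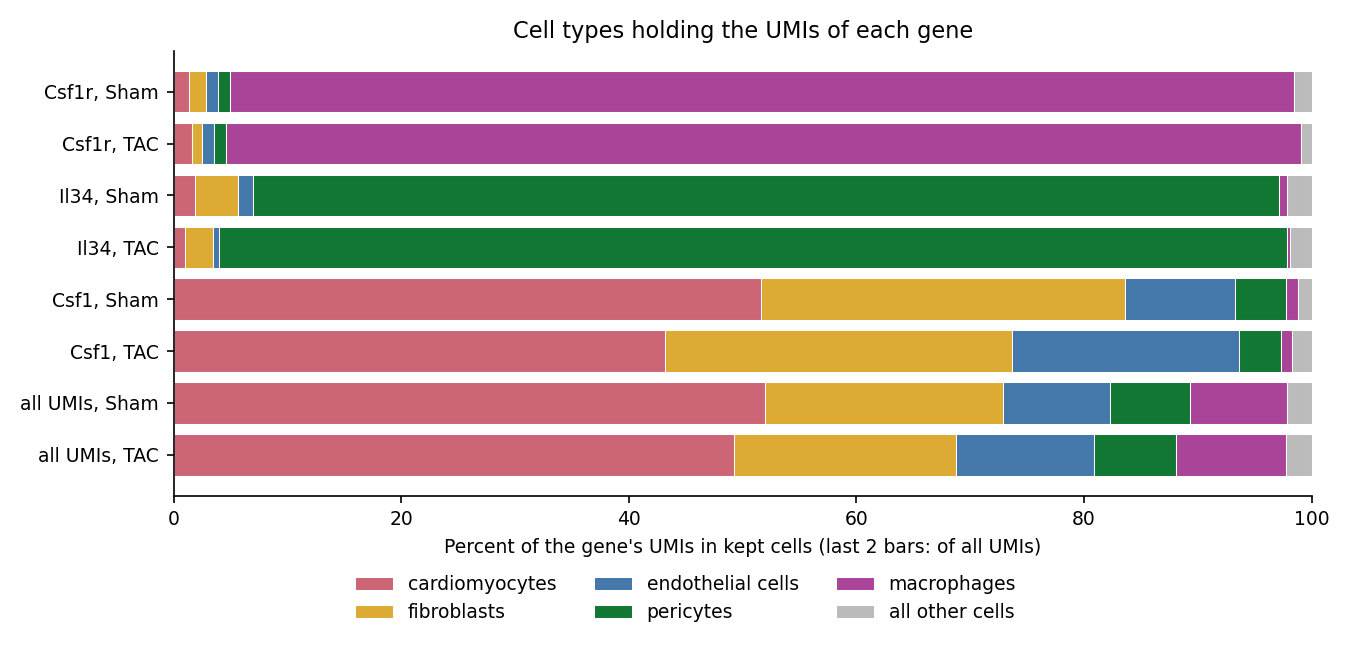
Percent of the UMIs of Csf1r, Il34 and Csf1 in each large cell type, by library, with the distribution of all UMIs in the last pair of bars. Macrophages hold 93.5% and 94.4% of Csf1r and pericytes 90.2% and 93.8% of Il34, while Csf1 follows the distribution of all UMIs more closely.

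Thinned to 1000 UMIs, 47.3% (44.0 to 50.7) of Sham and 38.01% (34.9 to 41.2) of TAC pericytes had an Il34 UMI. The share in macrophages, taken as the background, was 0.297% in Sham, and in TAC 0 of 1106 macrophages (0 to 0.333%). This interval is for cells with a UMI seen at that depth and sets no limit on the share that express the gene. Median depths were 1583 and 1700 UMIs in pericytes and 1314.5 and 1653 in macrophages, and the unthinned shares were 58.6% and 52.8% in pericytes. Pericytes with 3 or more Il34 UMIs numbered 208 in Sham and 140 in TAC, and the highest cells had 12 and 8 UMIs.

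Outside mural cells the Il34 counts were small, and fibroblasts differed from the rest in how they were distributed. Cardiomyocytes, endothelial cells and macrophages had 31, 21 and 12 Il34 UMIs in Sham and 12, 6 and 3 in TAC, with no more than 1 UMI in any of these cells. The 61 UMIs of Sham fibroblasts lay in 37 cells, of which the highest had 9 and 7 UMIs, and 44.3% of them were in 5 cells. The 28 UMIs of TAC fibroblasts lay in 23 cells with at most 3 each. Against the 7 pericyte markers (such as Rgs5, Kcnj8 and Abcc9), a comparison added after the values had been seen, Il34 had 100 UMIs (95.1 to 106) per 1000 marker UMIs in Sham pericytes, 117 (88.1 to 153) in fibroblasts, 51.9 (31.7 to 80.3) in endothelial cells and 72.7 (36.8 to 130) in macrophages. In TAC these were 63.1 (59.3 to 67.1), 51.6 (33.9 to 75.4), 15.5 (5.64 to 34.0) and 20.7 (4.22 to 61.7). Among the 6 types with at least 50 cells in each library, cardiomyocytes had the highest level of the pericyte list outside pericytes. Per 1000 marker UMIs they had 8.39 Il34 UMIs (5.69 to 11.9) in Sham and 2.42 (1.25 to 4.24) in TAC. The fibroblast interval included the pericyte value in both libraries, those of endothelial cells and cardiomyocytes lay below it in both, and that of macrophages included it in Sham and lay below it in TAC. Lymphatic endothelial cells had 0 Il34 UMIs in both libraries, which allows up to 16.4 and 11.7 per 1000000 UMIs.

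Csf1 was spread over several cell types and was lowest in the cells that carry the receptor. In Sham, fibroblasts led among these 6 types with 76.5 per 1000000 UMIs (from 415 UMIs), 1.49-fold (1.21 to 1.83) above endothelial cells at 51.5 (125 UMIs). Endothelial cells did not differ beyond counting error from cardiomyocytes at 49.6 (668 UMIs), and these were 1.57-fold (1.20 to 2.09) above pericytes at 31.5 (58 UMIs). In TAC, endothelial cells at 74.6 (241 UMIs) and fibroblasts at 71.3 (370 UMIs) did not differ beyond it, fibroblasts were 1.78-fold (1.56 to 2.04) above cardiomyocytes at 39.9 (524 UMIs), and cardiomyocytes were 1.71-fold (1.26 to 2.37) above pericytes at 23.4 (45 UMIs). Lymphatic endothelial cells had 4 UMIs (21.9) and 3 UMIs (11.7).

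Macrophages had 13 Csf1 UMIs in Sham (5.89, 3.13 to 10.1) and 12 in TAC (4.67, 2.41 to 8.16). Fibroblasts exceeded them 12.99-fold (7.51 to 24.6) and 15.3-fold (8.63 to 29.8). No large type had a lower Csf1 level than macrophages in either library. The Sham level of macrophages moved with the processing, to 14.6 (10.4 to 19.8) with doublets kept and 2.53 (0.306 to 9.13) with types from each cell's own markers, by which Sham pericytes were at 14.7 (7.82 to 25.1).

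Because cardiomyocytes held more RNA than any other type, the level and the total gave different pictures of the source of Csf1. Cardiomyocytes held 51.6% of the Csf1 UMIs in Sham and 52.0% of all UMIs. In TAC they held 43.2% of the Csf1 UMIs, with 49.2% of all UMIs. Fibroblasts held 32.0% and 30.5%, with 20.9% and 19.5% of all UMIs. With types from each cell's own markers, cardiomyocytes held 70.6% and 53.8% of the Csf1 UMIs, and fibroblasts 11.9% and 16.2%. Endothelial cells held 9.65% of the Csf1 UMIs in Sham and 19.9% in TAC, with 9.36% and 12.1% of all UMIs. These totals depend on how many cells of each type were captured.

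Csf1 was sparse in each cell. With thinning to 1000 UMIs, a Csf1 UMI was seen in 6.83% of Sham and 6.00% of TAC fibroblasts, in 5.57% and 4.23% of cardiomyocytes, in 4.04% and 5.38% of endothelial cells and in 3.20% and 1.88% of pericytes. The lowest type, macrophages, had 0.593% and 0.542%. The order of the libraries depended on depth in endothelial cells and fibroblasts. Thinned to 500 UMIs, which left out no cell, endothelial cells had 2.94% in Sham and 2.67% in TAC, and fibroblasts 2.97% and 2.58%. Thinned to 2000 UMIs, which kept the deeper cells only, they had 9.91% and 12.32%, and 11.02% and 12.31%. Cardiomyocytes and pericytes were lower in TAC at both depths. Whether any of these shares differ was not tested. Without thinning the shares were 13.9% and 14.3% in fibroblasts, 19.96% and 16.6% in cardiomyocytes, 5.41% and 6.89% in endothelial cells and 0.850% and 0.829% in macrophages, at median depths in Sham of 2155, 4507.5, 1105 and 1314.5 UMIs.

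**Figure D3:**
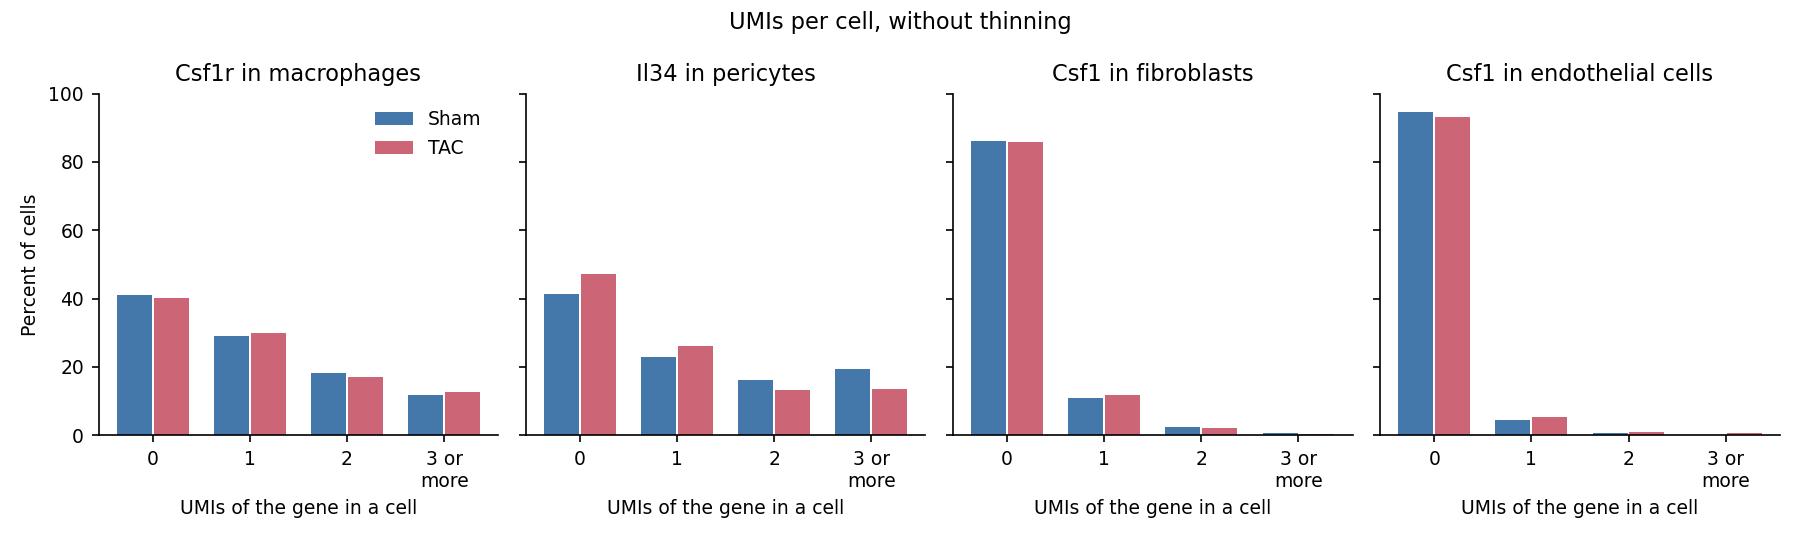
Percent of cells with 0, 1, 2 and 3 or more UMIs of the gene, without thinning, for Csf1r in macrophages, Il34 in pericytes and Csf1 in fibroblasts and endothelial cells, with Sham in blue and TAC in red. Csf1r was seen in 58.9% and 59.8% of macrophages and Il34 in 58.6% and 52.8% of pericytes, but Csf1 in no more than 14.3% of fibroblasts and 6.89% of endothelial cells.

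The cell types differed in which ligand they held. Capture may differ between the mRNAs of Csf1 and Il34, so the part of Il34 in their summed UMIs is compared only between types and libraries. It was 96.2% (95.1 to 97.1) in Sham and 96.0% (94.7 to 97.1) in TAC pericytes, and 34 of 35 and 16 of 20 UMIs in smooth muscle cells. In fibroblasts it was 12.8% (9.95 to 16.2) and 7.04% (4.73 to 10.01), in endothelial cells 14.4% (9.13 to 21.1) and 2.43% (0.897 to 5.21), and in cardiomyocytes 4.43% (3.03 to 6.24) and 2.24% (1.16 to 3.88). Its interval in pericytes overlapped with that of none of these 3 types in either library. Over all cells it was 55.7% (53.9 to 57.5) in Sham and 48.8% (46.7 to 50.8) in TAC.

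In Sham, pericytes with and without Il34 had Csf1 about as often. Of the Sham pericytes with an Il34 UMI 4.33% also had a Csf1 UMI (27 cells), and of those without 4.31%. In TAC these shares were 4.36% (24 cells) and 3.05%, and whether they differ was not tested. Of the 12 Sham and 11 TAC macrophages with a Csf1 UMI, 7 and 8 also had a Csf1r UMI, and of the 12 and 3 with an Il34 UMI 10 and 1 did.

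The libraries were then compared within each type. A gene was counted as past the fold if its level per 1000000 UMIs differed by at least 1.5-fold, among genes with at least 20 UMIs over both libraries in the type. The median ratio of TAC to Sham over all such genes lay between 1.002 and 1.03 in the 5 large types. Per cell it was 1.24 in macrophages and 1.16 in endothelial cells, whose cells were deeper in TAC (1936 against 1564 and 1435 against 1275 UMIs on average), and between 1.05 and 1.07 in the others.

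Il34 was lower in TAC than in Sham pericytes. The level of 563 against 799 gave a ratio of 0.705 (0.651 to 0.763), and per cell 1.04 against 1.38 UMIs gave 0.753 (0.695 to 0.815). The difference was below 1.5-fold, and 11.6% of the 11391 pericyte genes had a ratio at or below it. With types from each cell's own markers the difference was past 1.5-fold. The 7 pericyte markers summed to 7953 per 1000000 UMIs in Sham pericytes and 8934 in TAC, all above 0. The smooth muscle markers moved in the direction of Il34, with a sum in pericytes of 643 in Sham and 511 in TAC. So did the cardiomyocyte markers in pericytes, with 3345 and 2396, and the median share of mitochondrial UMIs, with 0.475% and 0.265%. Markers of fibroblasts (418 and 503), endothelial cells (125 and 136) and macrophages (51.1 and 61.9) went the other way. The part of these differences in the result was not tested. A sub-cluster led by Thsd4, Olfr78 and Slit3 held 16 Sham and 3 TAC pericytes. In the other 1049 and 1040 pericytes Il34 was at 808 and 565, a ratio of 0.699 (0.645 to 0.756).

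Il34 was also lower in TAC in the types where it was scarce. Among the members it alone was past the fold in cardiomyocytes with a ratio of 0.398 (0.186 to 0.797), in endothelial cells with 0.215 (0.0709 to 0.550) and it was 1 of 2 in fibroblasts with 0.480 (0.295 to 0.762). Of all genes, 8.2% were past the fold downwards in cardiomyocytes, 8.11% in endothelial cells and 6.32% in fibroblasts. When doublets were kept, the cardiomyocyte ratio turned to 1.77 (1.11 to 2.87) and the endothelial one was 0.746. Pericyte marker levels in these types were 274 and 377 per 1000000 UMIs in Sham and TAC cardiomyocytes, 167 and 120 in endothelial cells and 96.2 and 105 in fibroblasts, and their part in the result was not tested.

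Csf1 was higher in TAC than in Sham endothelial cells and lower in TAC cardiomyocytes. In endothelial cells 241 against 125 UMIs gave 74.6 against 51.5 per 1000000 UMIs, a ratio of 1.45 (1.16 to 1.81), and per cell 1.63 (1.31 to 2.04). In cardiomyocytes 39.9 against 49.6 gave 0.806 (0.718 to 0.905), and per cell 0.821 (0.731 to 0.922). Both ratios were below 1.5-fold per 1000000 UMIs, in types where 14% of genes were past the fold upwards (endothelial cells) and 8.2% downwards (cardiomyocytes). Among genes of at least 100 UMIs over both libraries these shares were 6.64% and 5.91%. The endothelial ratio was past 1.5-fold per cell, and over the alternatives it ranged from 1.27 to 1.72. The 8 cardiomyocyte markers moved in the same direction as Csf1 in cardiomyocytes, from 81625 per 1000000 UMIs in Sham to 63366 in TAC. In endothelial cells the markers of fibroblasts (334 and 470) and macrophages (67.1 and 96.9) moved in the direction of Csf1. Markers of cardiomyocytes (5015 and 3315), pericytes (167 and 120) and smooth muscle cells (65.5 and 53.2) went the other way there. The median share of mitochondrial UMIs was 0.234% in Sham and 0.128% in TAC cardiomyocytes, and 0.911% and 0.541% in endothelial cells. The part of these differences in the Csf1 ratios was not tested. In fibroblasts the ratio was 0.932 (0.808 to 1.08), in pericytes 0.742 (0.491 to 1.11) and in macrophages 0.793 (0.331 to 1.89), and these intervals include 1. With types from each cell's own markers the last 2 turned direction, to 1.36 (0.666 to 2.91) in pericytes and 1.48 (0.265 to 15.01) in macrophages, and with doublets kept the macrophage ratio was 0.494 (0.282 to 0.845).

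Csf1r in macrophages depended on the scale: it was lower in TAC per 1000000 UMIs, with a ratio of 0.841 (0.783 to 0.904), but per cell the 1.12 UMIs in TAC against 1.08 in Sham gave 1.04 (0.969 to 1.12). Against the medians over all genes of 1.002 and 1.24 it lay lower on both scales, and 28.7% of the 12308 macrophage genes had a ratio per 1000000 UMIs at or below it. The thinned shares of 47.0% and 42.3% had the direction of the level per 1000000 UMIs, and the unthinned ones of 58.9% and 59.8% that of the level per cell. In macrophages the median share of mitochondrial UMIs was 0.508% in Sham and 0.283% in TAC, and the cardiomyocyte markers had 3764 and 2263 per 1000000 UMIs. The 8 macrophage markers went the other way, with 4977 and 5514, as did the fibroblast markers, with 230 and 280. The part of these differences in the Csf1r ratio was not tested. Csf1r counts in fibroblasts were past the fold downwards with 24 against 14 UMIs, a ratio of 0.610 (0.292 to 1.23), and in cardiomyocytes, endothelial cells and pericytes the ratio lay between 0.752 and 1.17 with intervals that include 1. Of the 2 members with enough UMIs in macrophages and the 3 in pericytes, none was past the fold, where 11.6% and 9.02% of all genes were past it downwards and 12.7% and 11.5% upwards. Among genes of at least 100 UMIs over both libraries the shares were 6.8% and 4.08% downwards and 6.93% and 4.43% upwards. That no member was past the fold changed under alternatives: Il34 in pericytes was past it downwards with types from each cell's own markers. With doublets kept the Csf1 ratio in macrophages was 0.494, also beyond 1.5-fold.

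**Figure D4:**
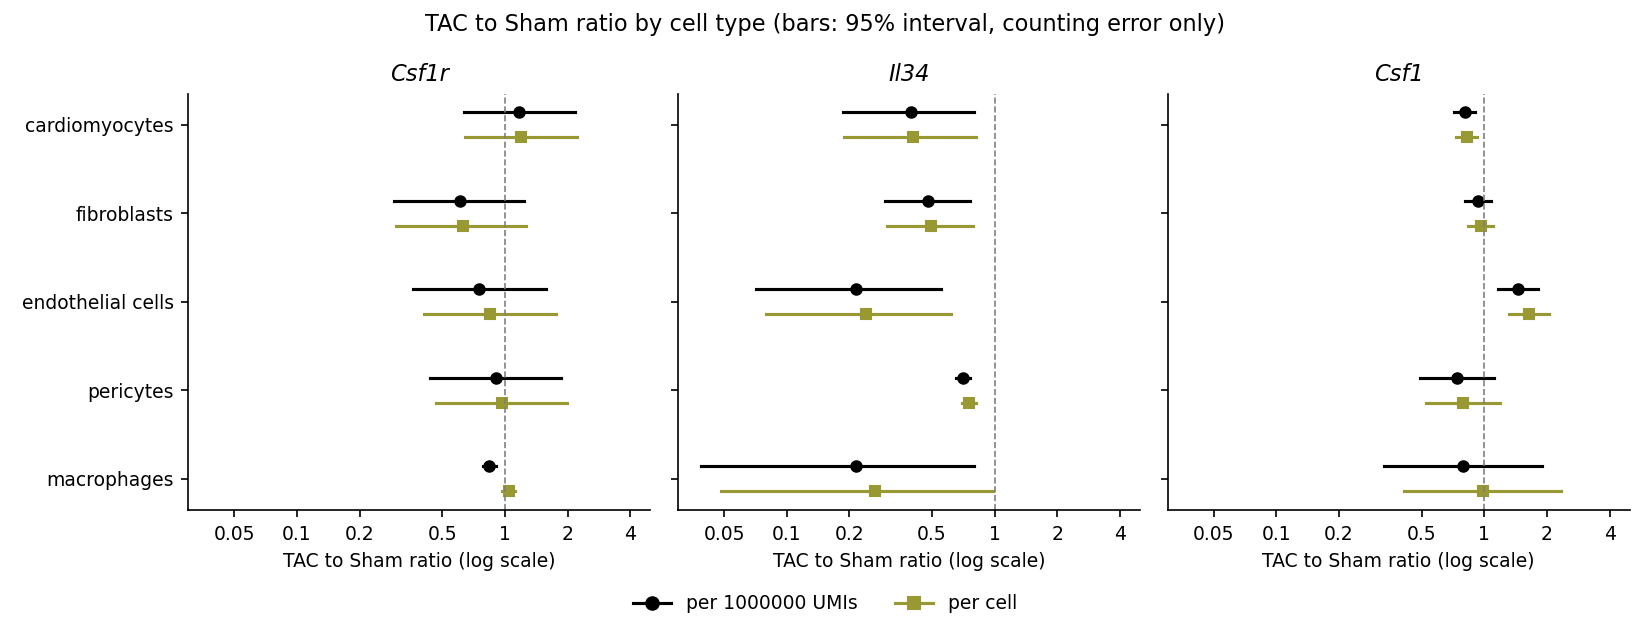
Ratio of TAC to Sham (log axis) for Csf1r, Il34 and Csf1 in 5 cell types, per 1000000 UMIs (black circles) and per cell (olive squares), with bars for the 95% interval from counting error and a dashed line at 1. The Il34 ratio is below 1 in pericytes on both scales (0.705 and 0.753), the Csf1 ratio above 1 in endothelial cells (1.45 and 1.63), and the Csf1r ratio in macrophages on either side of 1 (0.841 and 1.04).

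Macrophages were divided further to see whether the receptor differed among them. The cells of both libraries fell into 3 sub-clusters. One was led by Plekhg5, Cp and Egfr, another by Ednrb, Hsf3 and Gda, and the last was named MHC class II macrophages from 5 markers. Of the resident macrophage markers, Cd163 was among the top genes of the Plekhg5 sub-cluster, and Timd4 and Lyve1 among those of the Ednrb sub-cluster. Both stayed unnamed, with fewer than 3 markers that passed. Csf1r was 697 (656 to 741) in Sham and 686 (623 to 754) in TAC per 1000000 UMIs in the Plekhg5 sub-cluster. It was 578 (461 to 714) and 491 (453 to 531) in the Ednrb sub-cluster, and 691 (624 to 764) and 647 (587 to 711) in MHC class II macrophages. In TAC the Ednrb sub-cluster was lower than the others per 1000000 UMIs, with Plekhg5 macrophages 1.40-fold (1.23 to 1.58) and MHC class II macrophages 1.32-fold (1.16 to 1.49) above it, while in Sham the corresponding intervals include 1. Per cell the Ednrb sub-cluster was the highest in both libraries: it had 1.39 Csf1r UMIs in Sham and 1.29 in TAC, the Plekhg5 sub-cluster 1.13 and 1.09 and MHC class II macrophages 0.916 and 0.958, and 68.9% and 67.4%, 60.3% and 56.6%, and 54.3% and 54.2% of their cells had a UMI.

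The libraries differed in how their macrophages were divided. The Ednrb sub-cluster held 61 Sham (4.32%) and 487 TAC macrophages (36.7%), and the Plekhg5 sub-cluster 933 (66.1%) and 392 (29.5%), so each came mostly from 1 library, and library and condition cannot be told apart. The Ednrb cells were deeper, with a median depth of 2312 UMIs (Sham) and 2420 UMIs (TAC), than the Plekhg5 cells with 1346 and 1388.5. Within sub-clusters the TAC to Sham ratio of Csf1r per 1000000 UMIs was 0.984 (0.877 to 1.10), 0.850 (0.677 to 1.08) and 0.936 (0.814 to 1.08), in the order above, and with the sub-clusters given the same weight in both libraries it was 0.936 in place of 0.841. The intervals within sub-clusters all include 1, and per cell the ratios were 0.972, 0.927 and 1.05.

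Among endothelial cells the ratio of Csf1 between the libraries was highest in the sub-cluster led by Rasa4, Kirrel3 and Samd5, a sub-cluster that stayed unnamed, with Vegfc, Nr2f2 and Eln among its top genes and 1 arterial marker, Stmn2. Its level was 64.8 (44.9 to 90.5) in 364 Sham cells and 130 (107 to 157) in 536 TAC cells, a ratio of 2.01 (1.36 to 3.05). The other ratios were 1.22 (0.861 to 1.74) in the sub-cluster led by Gm12002, 1.43 (0.670 to 3.18) in arterial and 0.904 (0.483 to 1.75) in endocardial cells, and whether these differ from 2.01 was not tested. In TAC the Rasa4 sub-cluster was above these others, 2.24-fold (1.66 to 3.03) over Gm12002, 2.04-fold (1.27 to 3.42) over arterial and 2.87-fold (1.90 to 4.46) over endocardial cells, and in Sham no such interval left out 1.

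Some TAC endothelial cells had many Csf1 UMIs. Among TAC endothelial cells 5 had 7 or more Csf1 UMIs and among Sham endothelial cells 0 did, and of the former 3 were in the Rasa4 sub-cluster. In that sub-cluster a Csf1 UMI was seen in 62 of 536 TAC cells (11.6%) and 27 of 364 Sham cells (7.42%). Without the 5 highest cells of each library its ratio was 2.09 (1.28 to 3.54).

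Among fibroblasts, Csf1 was above the Rbfox1 sub-cluster in the adventitial one in Sham and in the matrix one in TAC. It was 98.6 (82.1 to 117) in Sham and 71.3 (59.8 to 84.5) in TAC adventitial fibroblasts (Pi16, Cd55, Dpp4), a ratio of 0.724 (0.563 to 0.930). In matrix fibroblasts (Postn, Cilp, Comp) it was 94.2 (63.1 to 135) and 128 (87.6 to 181), a ratio of 1.36 (0.797 to 2.33). The large sub-cluster led by Rbfox1 had 66.1 and 62.2, and the one led by Nkain2 75.4 and 84.5. In Sham, adventitial fibroblasts exceeded the Rbfox1 sub-cluster 1.49-fold (1.19 to 1.87), and in TAC, matrix fibroblasts exceeded it 2.06-fold (1.36 to 3.03). In Sham the ratios of matrix over Rbfox1, 1.42 (0.931 to 2.11), and of adventitial over Nkain2, 1.31 (0.933 to 1.86), include 1, as does that of matrix over Nkain2 in TAC, 1.51 (0.944 to 2.40). The matrix levels rest on 29 UMIs in Sham and 32 in TAC, of which 5 cells held 16 in each library.

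Among the fibroblast sub-clusters with at least 50 cells in each library, the Il34 level was highest in the matrix one, in Sham not beyond counting error over the adventitial one. Matrix fibroblasts had 9 UMIs in 4 of 114 Sham cells (29.2 per 1000000 UMIs) and 11 UMIs in 7 of 83 TAC cells (44.0). Adventitial fibroblasts had 22 UMIs in 7 of 439 Sham cells, of which 16 were in a pair of cells with 9 and 7, and 7 UMIs in 6 of 690 TAC cells. In TAC the matrix level was 11.8-fold (4.18 to 35.9) above the adventitial one, and in Sham 1.70-fold (0.688 to 3.84), an interval that includes 1. The Rbfox1 sub-cluster had 26 UMIs (8.15) and 8 UMIs (3.30). A TAC sub-cluster of 5 cells led by Plin1 had 1 UMI.

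Cardiomyocytes, divided after their values had been seen, fell mainly into a sub-cluster led by Ptgds, Ankrd1 and Cdh4 (1741 Sham and 410 TAC cells) and another led by Angpt1 (751 and 1964 cells). Their Csf1 levels were 49.9 and 47.1 in the first, a ratio of 0.945 (0.753 to 1.17), and 49.2 and 38.8 in the second, a ratio of 0.789 (0.669 to 0.932). The sub-clusters differed in makeup between the libraries as in macrophages.

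**Figure D5:**
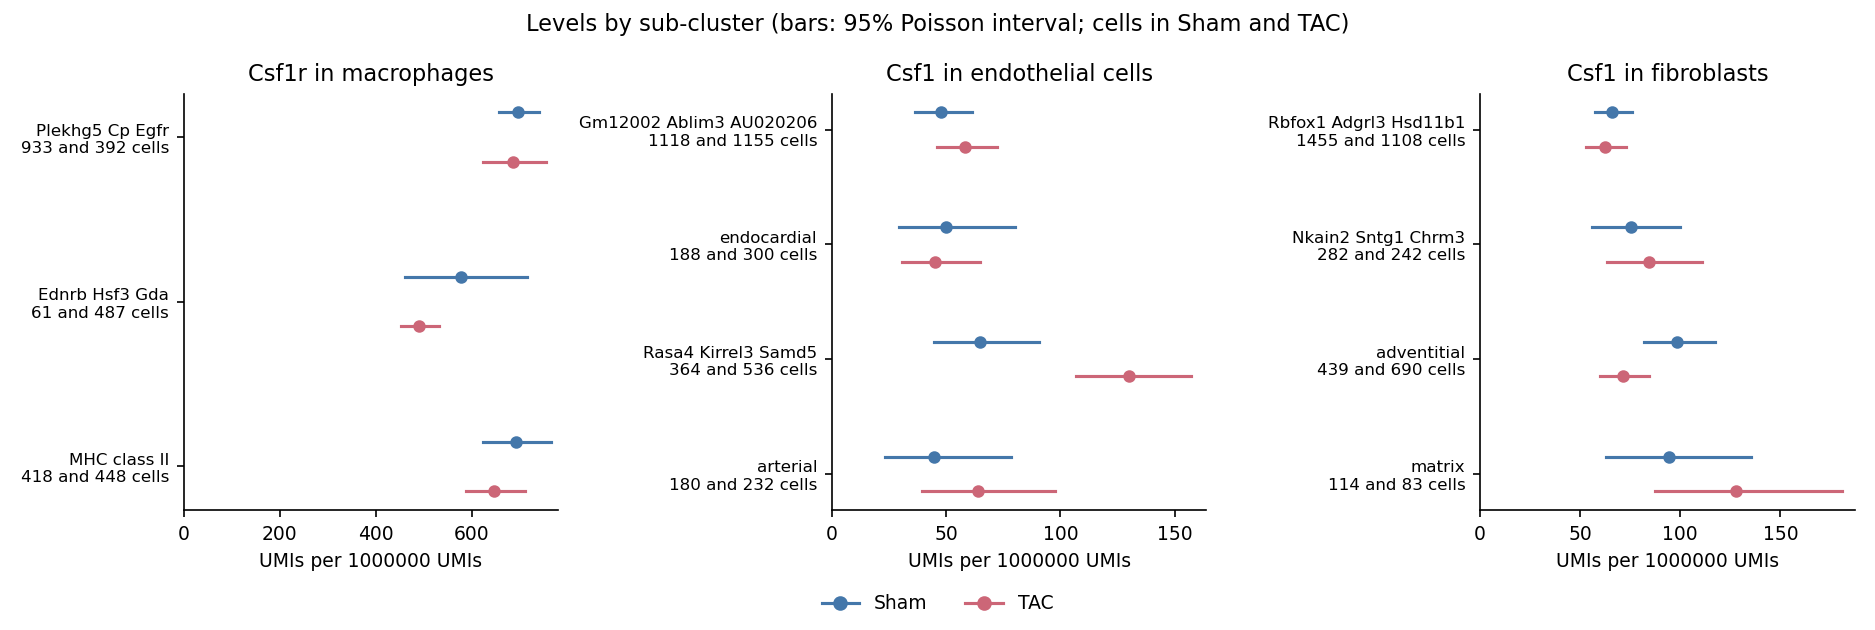
Levels (UMIs per 1000000 UMIs) of Csf1r in sub-clusters of macrophages and of Csf1 in sub-clusters of endothelial cells and fibroblasts, with Sham in blue, TAC in red, bars for the 95% Poisson interval and cell numbers in Sham and TAC under each name. On this scale Csf1r is lowest in the Ednrb sub-cluster (578 and 491), which is highest per cell (1.39 and 1.29), and Csf1 is 64.8 in Sham and 130 in TAC cells of the Rasa4 sub-cluster.

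A list of 44 further genes of the pathway gave the surroundings of the receptor. Factors that regulate the Csf1r gene were mostly highest in macrophages among the 6 types with at least 50 cells in each library: Runx1 at 1442 per 1000000 UMIs in Sham and 1529 in TAC, Spi1 (PU.1) at 215 and 284, and Irf8 at 144 and 126. Ets2 and Fli1 were highest in endothelial cells among these types. In macrophages, 38 of the 44 genes had enough UMIs, of which 2 were past the fold upwards and 3 downwards, with a median ratio of 0.962, beside 12.7% and 11.6% of all genes. Ets2 was the higher one with 155 against 65 UMIs, a ratio of 2.05 (1.52 to 2.78), and Src had 19 against 10, a ratio of 1.63 (0.723 to 3.93). Lower were Flt3, the related receptor of dendritic cells and progenitors, with 3 against 36 UMIs (0.0716, 0.0141 to 0.227), Csf2rb, the shared beta chain of the GM-CSF receptor, with 0.664 (0.532 to 0.826), and Pdgfrb with 24 against 32 (0.645, 0.363 to 1.13). The intervals of Src and Pdgfrb include 1.

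Of 17 signalling genes around the receptor, Src alone was past the fold in macrophages, beside 12.7% of all genes upwards and 11.6% downwards. It had 19 UMIs in TAC against 10 in Sham, and its interval includes 1. Inpp5d (SHIP1), which removes the product of PI 3-kinase, had a ratio of 0.843 (0.799 to 0.891), Syk 0.884 (0.814 to 0.961), Tyrobp (DAP12) 0.978 (0.821 to 1.16), Plcg2 1.31 (1.15 to 1.501) and Fyn 1.44 (1.22 to 1.71). Among the regulators of the Csf1r gene, Spi1 had 1.33 (1.18 to 1.49). On the per-cell scale, on which the median of all macrophage genes was 1.24, Inpp5d, Syk and Tyrobp turned above 1.

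Other partners of the ligands were few. Trem2, a lipid receptor of macrophages that can bind Il34, had 71 UMIs in Sham and 89 in TAC macrophages, a ratio of 1.08 (0.780 to 1.49). Ptprz1 and Sdc1, other proteins reported to bind Il34, had 0 UMIs in Sham macrophages and 1 and 0 in TAC. Over all cells Ptprz1 had 37 UMIs in Sham and 28 in TAC and was among the leading genes of the Schwann cell clusters. Sdc1 had 19 and 26, of which 8 were in TAC lymphatic endothelial cells. Adam17, an enzyme that sheds both Csf1r and membrane-bound Csf1, was at 132 and 136 in macrophages, a ratio of 1.03 (0.880 to 1.21). The other colony-stimulating factors were all but unseen, with Csf2 and Il3 at 0 UMIs in the cell types of both libraries and Csf3 at 0 UMIs in Sham and 2 in TAC. Their receptors were highest in macrophages among the 6 types, with Csf2ra at 389 and 364 and Csf3r at 117 and 83.7, a ratio of 0.716 (0.595 to 0.862).

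The pathway genes were also compared in the 4 other types. Past the fold were 2 of 29 genes upwards and 2 downwards in cardiomyocytes, 1 and 3 of 29 in endothelial cells, 4 and 2 of 30 in fibroblasts and 0 and 2 of 25 in pericytes, beside upward shares of all genes of 16.4%, 14%, 14.3% and 11.5% and downward shares of 8.2%, 8.11%, 6.32% and 9.02%. Pik3r1, the regulatory subunit of PI 3-kinase, was lower in TAC in cardiomyocytes (0.587, 0.572 to 0.603) and fibroblasts (0.605, 0.561 to 0.652). In endothelial cells Kit was lower (0.573, 0.407 to 0.802), and its ligand Kitl was highest there among the 6 types, at 875 and 1017.

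Genes with the most similar pattern were found by Pearson correlation of log2 levels over 6 cell types in both libraries, 12 points that share libraries and depth, among 13440 genes. Csf1r was matched by Otulinl (r = 0.994), F13a1 (0.987), Ly86 (0.987), Ms4a7 (0.986) and Rnf180 (0.985), all highest in macrophages. Their levels there were not all lower in TAC: Ly86 had 350 in Sham and 293 in TAC, but Otulinl 298 and 312. Il34 was matched by Dgkb (0.988), Myh11 (0.985), Atp1b2 (0.984), Lin7a (0.976) and Lrfn2 (0.974), all highest in pericytes among these types. Lin7a had 807 in Sham and 838 in TAC pericytes, Dgkb 439 and 385, and Myh11, a smooth muscle myosin, 81.6 and 57.2, a ratio of 0.701. Csf1 was matched by Gpc4 (0.953), Plod2 (0.944), Tcf7l2 (0.917), Gabarapl1 (0.916) and Gpatch8 (0.910), which are spread over several types. Among the members r was -0.736 for Csf1 and Csf1r, 0.127 for Csf1 and Il34 and 0.0744 for Il34 and Csf1r.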

How the data were processed

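The deposited values are raw counts of UMIs for each gene in each barcode, made by the authors with Cell Ranger, version 7.1.0 in the submitters' processing notes and file headers and another version in the paper, without normalization. The labels and the paper also differ on the version of the 3-prime kit. Aligner settings, genome build, strand and introns are not given in the sources used here. Of the 55357 gene identifiers, 52081 (94.1%) were in GENCODE M21.

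With scanpy 1.11.5, numpy 2.4.6, scipy 1.17.1 and igraph 0.11.9, barcodes with under 200 genes (1 per library) and Scrublet doublets (459 Sham, 4.62%, and 479 TAC, 4.82%) were removed. Each library was clustered by itself (2000 variable genes, 30 components, 15 neighbours, resolution 1, seed 1) without the members, pathway and mitochondrial genes. Names needed 3 or more markers, each in 10% or more of the cluster and higher there by 1 or more on the log2 scale. Sub-clusters joined both libraries (1000 genes, 20 components, resolution 0.4). Levels per 1000000 UMIs have exact Poisson, shares Clopper-Pearson and ratios conditional binomial 95% intervals, and 0 UMIs has a limit of 3 counts. Named genes were the 3 members, genes of a list of 44 pathway genes, compared between libraries where they had at least 20 UMIs in a type, and the 5 genes of at least 200 UMIs most like each member, with 1 added to levels before the log2. Members and lists were chosen with earlier results of these data known. Simulated data were used to test the ratios across genes, the intervals, the search for similar genes and the naming of clusters. Doublet removal, sub-clusters, thinning and types from each cell's own markers were not tested in this way.

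Alternatives were 500 genes, 25% mitochondrial UMIs, doublets kept, resolutions 0.5 and 2, joint clustering, types from each cell's own markers, levels without mitochondrial genes, without the highest cell, thinning to 500 or 2000 UMIs or none, and genes of at least 100 UMIs. Levels per cell, no shared barcodes, pericytes with smooth muscle cells, no 5 highest cells, and equal sub-cluster weights were added after seeing the data.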

Additional observations from a re-analysis of the deposited data

Results flagged for a closer look

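The Csf1 ratio of TAC to Sham was 1.45 in endothelial cells and 0.806 in cardiomyocytes, with intervals on opposite sides of 1. The difference between the types was not tested, since each ratio rests on 1 library per condition.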

How the results depend on the processing

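Of 722 alternative values over 18 settings, 243 of the main ones stayed within the counting interval of the reported value and 36 moved outside it. Among the others it was 389 and 52. In each set 1 ratio whose interval left out 1 reversed, and ratios whose interval includes 1, such as Csf1 in pericytes and macrophages, were not counted as reversed where they turned direction. The 52 include all 10 counts of genes past the fold, retaken with genes of at least 100 UMIs. These counts have no interval and were taken as moved if they changed by more than 1.5-fold. Of the main ratios of TAC to Sham, Il34 in pericytes ranged from 0.635 to 0.756, Csf1 in endothelial cells from 1.27 to 1.72 and Csf1 in cardiomyocytes from 0.786 to 0.855. Csf1r in macrophages ranged from 0.825 to 1.04 (per cell, reversed), with 0.936 under the same sub-cluster weights, both settings added after seeing the data. With doublets kept, the Il34 ratio reversed to 1.77 (1.11 to 2.87) in cardiomyocytes and was 0.746 in endothelial cells, Il34 in Sham pericytes was 714 per 1000000 UMIs, Il34 UMIs in pericytes were 88.5% and 88.8% of all in Sham and TAC, Csf1 UMIs in Sham cardiomyocytes 46.8%, and Csf1r in macrophages 605 and 499. At resolution 2 pericytes held 88.0% of Il34 in Sham, and together with smooth muscle cells 92.3% and 95.2%. With types from each cell's own markers, by which Csf1r in Sham cardiomyocytes was at 40.8 per 1000000 UMIs, cardiomyocytes held 70.6% and 53.8% of Csf1, endothelial cells 6.18% and 17.2%, fibroblasts 11.9% and 16.2%, pericytes 43.7% and 53.1% of Il34 and macrophages 31.6% and 58.8% of Csf1r. There Il34 in TAC pericytes was 511 with a ratio of 0.635, Csf1r in Sham macrophages 649.9, and Il34 98.2% of the ligand UMIs of Sham pericytes. Thinned to 500, to 2000 and not at all, Csf1r was seen in 29.96%, 62.3% and 58.9% of Sham and 25.5%, 58.9% and 59.8% of TAC macrophages, and Il34 in 31.4%, 72.5% and 58.6% of Sham and 20.9%, 57.7% and 52.8% of TAC pericytes. Thinning to 2000 left out 1104 Sham and 840 TAC macrophages and 738 Sham and 684 TAC pericytes, so its shares cover the deeper cells only. The cause of these shifts was not tested, other than that fewer UMIs per cell give fewer cells with a UMI. No paired analysis was possible because there was 1 library of each kind. Types of few cells and genes of few UMIs are limited by depth.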

Other observations

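Some Csf1r UMIs lay in cells outside the large types. A Sham cluster of 50 cells that stayed unnamed, with the cycling genes Mki67 and Top2a and the dendritic cell genes Clec9a and Flt3 among its leading genes, had 20 Csf1r UMIs among 98521, in 11 cells. A TAC cluster of 20 unnamed cells, with Ccr2 and Flt3 among its leading genes, had 5 Csf1r UMIs in 4 cells. In TAC 57 T cells had 6 Csf1r UMIs, all in 2 cells with 4 and 2, and the 38 Sham T cells had 0. Csf1 was seen in the few epicardial or mesothelial cells, with 6 UMIs among 39719 in 20 Sham cells and 13 among 61192 in 25 TAC cells.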
